A study of Homo sapiens with 12 samples.

Results

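Of the 59248 entries in the deposited gene tables of this osteosarcoma study, 8 genes were taken here as the enzymes that make and interconvert glutamine, glutamate and proline. The set holds GLUL, GLUD1, GOT1, GOT2, ALDH18A1, PYCR1, PYCR3 and PRODH, chosen by name and found through their Ensembl identifiers. Each had 1 entry, and 7 of the 8 had enough counts to be tested. The samples are SJSA-1 cells, an established human osteosarcoma line, infected with lentivirus and kept under puromycin until every cell was positive for EGFP. In the sh1 group (6 libraries) the virus carried the first of the short hairpin RNAs against RUNX2, a transcription factor of bone-forming cells, and in the shNC group (6 libraries) it carried a scrambled hairpin. Both groups therefore carry the vector, EGFP and the resistance gene, each is a stable pool of infected cells, and 1 hairpin is compared with 1 control. Whether the 6 libraries within a group derive from separate cultures is not stated, so p-values cover only the spread among libraries, and that spread may be technical. Fold changes are sh1 over shNC throughout.

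Glutamate sits at the centre of this group of enzymes. Glutamine synthetase (GLUL) adds ammonia to glutamate to make glutamine. Glutamate dehydrogenase 1 (GLUD1) and the aspartate aminotransferases of the cytosol (GOT1) and of mitochondria (GOT2) exchange glutamate with 2-oxoglutarate. Proline is made from glutamate in mitochondria by pyrroline-5-carboxylate synthase (ALDH18A1), and the product is reduced to proline by reductases that include the mitochondrial PYCR1 and the cytosolic PYCR3. Proline dehydrogenase (PRODH) takes proline back to pyrroline-5-carboxylate. Proline is abundant in collagen, the main protein of bone matrix.

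RefSeq promoter windows (GRCh38.p14, from 250 bases before to 50 bases after a listed start site) were given for 5 of the 8 enzymes, GLUL having a pair of start sites, and all lie on the minus strand. Shown here are the windows of the pair of enzymes whose libraries did not overlap between the groups, ALDH18A1 and GLUL, and that of GOT1, which held a motif found in no other of these windows. They lie at chr10:95656662-95656961, chr1:182391741-182392040 and chr10:99430575-99430874. Capitals mark motif matches, and the sequences run 5′ to 3′ on the gene's strand.
ALDH18A1: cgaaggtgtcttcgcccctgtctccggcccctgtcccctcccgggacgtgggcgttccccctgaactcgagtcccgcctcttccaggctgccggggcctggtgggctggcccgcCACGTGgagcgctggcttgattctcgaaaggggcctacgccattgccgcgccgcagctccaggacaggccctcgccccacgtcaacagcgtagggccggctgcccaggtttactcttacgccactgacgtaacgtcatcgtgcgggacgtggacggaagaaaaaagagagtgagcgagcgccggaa
GLUL: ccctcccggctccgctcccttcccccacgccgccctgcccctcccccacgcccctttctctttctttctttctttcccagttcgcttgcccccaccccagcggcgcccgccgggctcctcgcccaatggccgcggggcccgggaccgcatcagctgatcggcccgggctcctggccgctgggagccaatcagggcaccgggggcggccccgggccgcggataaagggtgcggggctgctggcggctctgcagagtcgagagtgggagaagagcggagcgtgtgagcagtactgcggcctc
GOT1: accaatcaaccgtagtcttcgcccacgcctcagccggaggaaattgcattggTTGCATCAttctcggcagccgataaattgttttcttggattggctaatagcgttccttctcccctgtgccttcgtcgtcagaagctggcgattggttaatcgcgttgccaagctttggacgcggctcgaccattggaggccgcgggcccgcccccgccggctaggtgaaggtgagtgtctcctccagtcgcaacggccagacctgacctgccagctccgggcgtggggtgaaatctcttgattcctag
The motifs were searched by their letters on both strands. The letters TGTGGT, a form of the RUNX core, were found in none of the 6 windows of the 5 enzymes. They stood in 13.1% of 35116 promoter windows of the same length. Other forms of the core were not searched. The form TGCGGT can be read in the GLUL window above on the opposite strand, printed as accgca, and in the GLUL window not shown. The other windows were not read for it, and its share of all windows was not counted. The E-box CACGTG, a palindrome, stood in ALDH18A1 with 130 bases between it and the start site, and 7.26% of all windows held it. The composite ATF4 and C/EBP motif TGATGNAA was found in GOT1 on the opposite strand, printed as TTGCATCA with 190 bases between it and the start site, and 3.62% of all windows held it. No match overlapped another. Guanine and cytosine made up 67.0% of the ALDH18A1 window, 72.7% of this GLUL window and 58.0% of the GOT1 window, where the median of all windows was 58.7%. A match is a description of letters only.

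The total gene count ranged between 11239638 and 16346022 in sh1 and between 15328312 and 19992974 in shNC. RUNX2 itself was at 24.6 ± 1.95 CPM in sh1 and 39.8 ± 4.31 CPM in shNC (SD, n = 6 each). The groups did not overlap, and RUNX2 had a log2 fold change of −0.69 (SE 0.076, edgeR adjusted p = 4.6e-06). CPM here and below are gene counts scaled to library size after TMM normalization. In sh1 replicate 3, the smallest library, ribosomal RNA genes took 1.72% of the counts, against 0.781% to 0.852% in the other sh1 libraries and 0.610% to 0.922% in shNC. Without this library ALDH18A1, GLUL and PYCR1 were still lower, with log2 fold changes of −0.43, −0.65 and −0.34, and each kept its call. Of 11 markers listed for the line, 7 were tested, of which 3 were higher, RUNX2 was lower, and CDK4, COL1A2 and SPP1 were not called. SPARC, a bone matrix protein, was at 2286 CPM in sh1 and 1446 CPM in shNC (log2 fold change 0.66, adjusted p = 5.58e-07). The collagen gene COL1A1 was at 16.3 CPM in sh1 and 5.83 CPM in shNC (1.49, adjusted p = 2.32e-05), and MDM2 at 1125 CPM in sh1 and 912 CPM in shNC (0.30, adjusted p = 0.0042). COL1A2, the other type I collagen gene, was at 0.732 CPM in sh1 and 0.626 CPM in shNC (0.22, adjusted p = 0.55). The osteoblast genes ALPL, IBSP, SP7 and BGLAP had at most 5 counts in any library. Of 9 leukocyte markers only CSF1R was tested. It was higher in sh1, at 8.57 to 10.39 CPM against 3.66 to 5.50 CPM in shNC. The list sum, 9.38 to 11.03 CPM in sh1 and 4.02 to 6.34 CPM in shNC, was mainly this gene. Each other leukocyte marker had at most 9 counts in any library, and PTPRC and CD3E had at most 2. Of 8 markers of hepatocytes, astrocytes and erythroid cells, GFAP alone was tested, at 1.80 CPM in sh1 and 0.985 CPM in shNC (adjusted p = 0.0033). That list summed to 1.53 to 2.17 CPM in sh1 and 0.684 to 1.62 CPM in shNC, with HBA2 at 0 in every library and ALB at no more than 1 count. Of the 5 epithelial markers KRT8 was higher in sh1, and KRT18 was not called (log2 fold change 0.05, adjusted p = 0.55). That list summed to 421 to 579 CPM in sh1 and 372 to 464 CPM in shNC, with CDH1 at 0 in every library. The 4 endothelial markers summed to 3.25 to 5.95 CPM in sh1 and 2.68 to 6.11 CPM in shNC. The part of these markers in the results was not tested.

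Of the 7 enzymes tested, GLUL, ALDH18A1 and PYCR1 fell in sh1, none rose, and GLUD1, GOT1, GOT2 and PYCR3 did not pass the test. Among all 16489 genes tested, 13.3% were lower and 12.8% higher at an adjusted p under 0.05. The 3 that fell make glutamine or carry out steps from glutamate to proline. All changes were smaller than 2-fold. The median log2 fold change of the 7 enzymes was −0.20, where that of all genes tested was −0.0035. At an unadjusted p under 0.05, 4 were lower and 0 higher, and DESeq2 called 0 higher as well. The libraries of the groups did not overlap for 2 of the 7 enzymes, and for 11.9% of all genes tested.

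**Figure D1:**
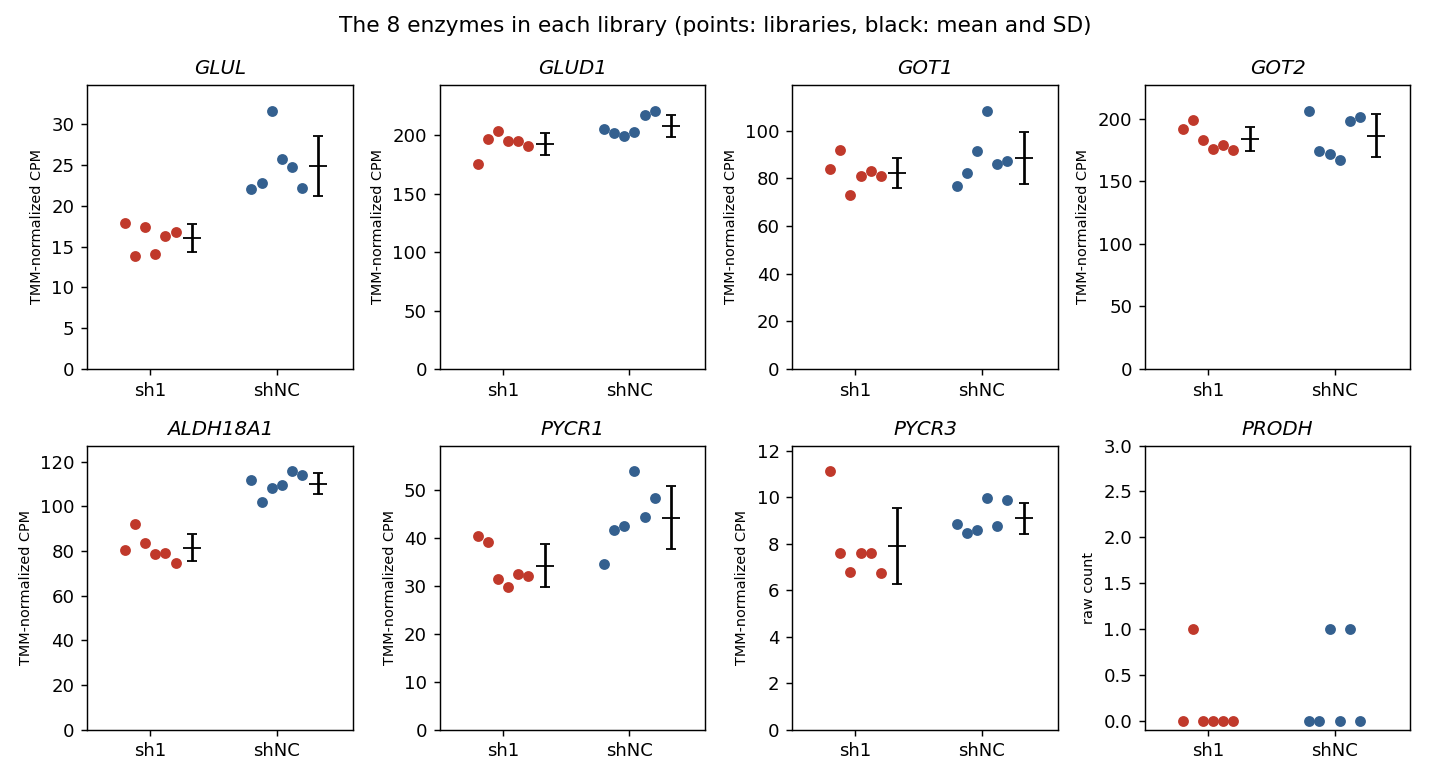
Level of each of the 8 enzymes in the 6 sh1 (red) and 6 shNC (blue) libraries. The vertical axis is TMM-normalized CPM, except for PRODH, where it is the raw count. Points are libraries in replicate order, and the black cross and bar give the group mean and SD. GLUL and ALDH18A1 show no overlap between the groups, and PYCR3 has 1 high sh1 library at 11.1 CPM.

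GLUL had the largest fold change of the 7. The gene (ENSG00000135821) lies on chromosome 1, 182378098 to 182392206, minus strand of GRCh38, and its canonical transcript has 7 exons. Its level was 13.8 CPM in the lowest sh1 library, 16.5 CPM at the median and 17.8 CPM in the highest. In shNC the lowest, median and highest were 22.1, 23.8 and 31.6 CPM. Every sh1 library thus lay below every shNC library, and shNC replicate 3 was the highest of the 12. The means were 16.0 ± 1.70 CPM in sh1 and 24.9 ± 3.64 CPM in shNC (SD, n = 6 each). The log2 fold change was −0.64 (SE 0.096, edgeR adjusted p = 0.000103), which puts sh1 at 64.3% of the shNC level with a 95% interval of 55.9% to 74.0%. GLUL was a weakly counted gene, with 197 to 632 counts per library. None of its processed pseudogenes in the tables had a count.

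ALDH18A1 had the smallest p-value of the 8 enzymes. It lies on chromosome 10, 95605941 to 95656711, minus strand (ENSG00000059573, 18 exons), and its first base is the start site in the window printed above. The lowest, median and highest sh1 libraries had 74.9, 79.8 and 92.3 CPM. In shNC the values were 102, 111 and 116 CPM. The groups did not overlap, and replicate 2 was both the highest sh1 library and the lowest shNC library. Means were 81.5 ± 5.98 CPM in sh1 and 110.2 ± 4.83 CPM in shNC (SD, n = 6 each). The log2 fold change was −0.43 (SE 0.053, edgeR adjusted p = 1.24e-05), equal to 74.0% of the shNC level with a 95% interval of 68.4% to 79.9%.

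PYCR1 catalyses the last step in mitochondria. It lies on chromosome 17, 81932384 to 81942412, minus strand (ENSG00000183010, 7 exons). The lowest, median and highest sh1 libraries had 29.7, 32.2 and 40.4 CPM, against 34.6, 43.4 and 53.8 CPM in shNC. The groups overlapped through shNC replicate 1, and the other 5 shNC libraries lay above every sh1 library. PYCR1 averaged 34.2 ± 4.41 CPM in sh1 and 44.2 ± 6.51 CPM in shNC (SD, n = 6 each). This gave a log2 fold change of −0.37 (SE 0.098, edgeR adjusted p = 0.00998), or 77.5% of the shNC level (95% interval 67.2% to 89.4%). The call was lost in limma on log2(FPKM + 1) without a filter (log2 fold change −0.33, adjusted p = 0.092). MYADML2 overlaps PYCR1 on the same strand and had at most 4 counts.

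PYCR3, the cytosolic reductase, was low in all libraries, with 77 to 172 counts. It lies on chromosome 8, 143603210 to 143609773, minus strand (ENSG00000104524, 6 exons). Its lowest, median and highest levels were 6.76, 7.59 and 11.1 CPM in sh1 and 8.47, 8.81 and 9.97 CPM in shNC. The 11.1 CPM belong to sh1 replicate 1, and the other 5 sh1 libraries lay below every shNC library. With all libraries the log2 fold change was −0.20 (SE 0.114, 95% interval −0.44 to 0.04, adjusted p = 0.22). Without sh1 replicate 1 it was −0.31 and passed the test (adjusted p = 0.020). TIGD5 overlaps PYCR3 on the opposite strand and was at 5.36 CPM in sh1 and 6.83 CPM in shNC (log2 fold change −0.35, adjusted p = 0.051). The kit named in the methods does not mark strand, so reads from the stretch these genes share cannot be assigned to 1 of them, and how much they share was not measured.

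The ratio of PYCR1 to PYCR3 was taken on the FPKM scale, which divides counts by library size and gene length. It was 4.93 ± 0.624 in sh1, with a range of 4.09 to 5.78, and 5.45 ± 0.565 in shNC, with a range of 4.38 to 6.07 (SD, n = 6 each). The groups overlapped, and PYCR1 was the higher of the pair in every library on this scale. The ratio of ALDH18A1 to PYCR1, the enzymes of successive steps, was 1.85 ± 0.188 in sh1 and 1.95 ± 0.303 in shNC (SD, n = 6 each), within the spread of both groups. These ratios were not tested.

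PRODH, which breaks proline down, was at or near 0. It had 1 count in sh1 replicate 2, 1 count each in shNC replicates 3 and 5, and 0 in the other 9 libraries. A floor of 3 counts corresponded to 0.184 to 0.265 CPM in sh1 and 0.150 to 0.194 CPM in shNC, so no difference could be seen at this depth and no fold is given. PRODH lies on chromosome 22, 18912777 to 18936553, minus strand (ENSG00000100033, 14 exons), and its pseudogene PRODHLP had at most 3 counts. ALDH4A1, the mitochondrial dehydrogenase that oxidises pyrroline-5-carboxylate to glutamate, was at 1.78 CPM in sh1 and 1.20 CPM in shNC and did not pass the test (adjusted p = 0.085).

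The enzymes that exchange glutamate with 2-oxoglutarate did not pass the test. GLUD1 (ENSG00000148672, chromosome 10, 87050202 to 87094843, minus strand, 13 exons) was at 176, 195 and 204 CPM in the lowest, median and highest sh1 libraries and at 199, 204 and 221 CPM in shNC. In 5 of 6 sh1 libraries it lay below the lowest shNC library, and sh1 replicate 3 lay inside the shNC range. Its log2 fold change was −0.11 (SE 0.047, 95% interval −0.21 to −0.01), with an unadjusted edgeR p of 0.032 and an adjusted p of 0.095. SHLD2 overlaps GLUD1 on the opposite strand and had a log2 fold change of 0.06 (adjusted p = 0.41), and the same limit holds for the stretch they share. Of the copies of GLUD1, GLUD1P3 had 24 to 55 counts and GLUD2 had 2 to 16.

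GOT1 (ENSG00000120053, chromosome 10, 99396870 to 99430624, minus strand, 9 exons) was at 73.0, 82.0 and 92.0 CPM in the lowest, median and highest sh1 libraries and at 76.7, 86.6 and 108 CPM in shNC. The groups overlapped widely, with shNC replicate 4 the highest of all. The log2 fold change was −0.11 (SE 0.073, 95% interval −0.26 to 0.05, adjusted p = 0.30), and it was −0.03 without shNC replicate 4. GOT2 (ENSG00000125166, chromosome 16, 58707131 to 58734342, minus strand, 10 exons) was at 175, 181 and 199 CPM in sh1 and at 167, 186 and 206 CPM in shNC. Its log2 fold change was −0.02 (SE 0.060, 95% interval −0.15 to 0.10, adjusted p = 0.83), an interval that holds changes in either direction. The ratio of GOT1 to GOT2 in FPKM was 0.501 ± 0.0288 in sh1 and 0.539 ± 0.110 in shNC (SD, n = 6 each), within the spread of shNC.

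Levels of different genes can be compared only per length, so the deposited FPKM were used. GLUD1 came first, at 55.0 ± 2.70 FPKM in sh1 and 58.6 ± 2.62 FPKM in shNC (SD, n = 6 each), followed by GOT2 at 48.9 ± 2.49 FPKM in sh1 and 49.1 ± 3.95 FPKM in shNC (SD, n = 6 each). Their ranges overlapped in sh1 but not in shNC. ALDH18A1 was at 21.7 ± 1.55 FPKM in sh1 and 29.0 ± 1.13 FPKM in shNC (SD, n = 6 each). GOT1 was at 24.5 ± 1.76 FPKM in sh1 and 26.1 ± 3.55 FPKM in shNC (SD, n = 6 each), above ALDH18A1 in the sh1 means and below it in the shNC means, with overlapping ranges in both groups. PYCR1 followed at 11.9 ± 1.52 FPKM in sh1 and 15.2 ± 2.44 FPKM in shNC (SD, n = 6 each). PYCR3 was at 2.44 ± 0.498 FPKM in sh1 and 2.78 ± 0.226 FPKM in shNC, and GLUL at 1.78 ± 0.194 FPKM in sh1 and 2.73 ± 0.418 FPKM in shNC (SD, n = 6 each). The ranges of these last enzymes were separate in sh1 and overlapped in shNC. Among the 16489 genes tested, GLUD1 stood at percentile 96.4 of mean FPKM and GLUL at percentile 37.4.

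The order of neighbours depended on the gene length used. For GOT2, the length behind the deposited FPKM was 3766 bases, while its canonical transcript has 2421 bases. With canonical lengths, a choice made after the data had been seen, GOT2 came first at 76.1 in sh1 and 76.3 in shNC, above GLUD1 at 58.6 in sh1 and 62.5 in shNC, on the same per-length scale. GOT1, at 41.7 in sh1 and 44.5 in shNC, then lay above ALDH18A1, at 24.4 in sh1 and 32.6 in shNC. GLUL was then at 2.13 in sh1 and 3.27 in shNC and PYCR3 at 2.37 in sh1 and 2.70 in shNC, so that GLUL lay above PYCR3 in the shNC means. The comparisons between sh1 and shNC of 1 gene do not depend on its length. The sum over the 8 enzymes was 166 ± 6.22 FPKM in sh1 and 184 ± 8.16 FPKM in shNC (SD, n = 6 each), with 5 of 6 sh1 libraries below the lowest shNC library.

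**Figure D2:**
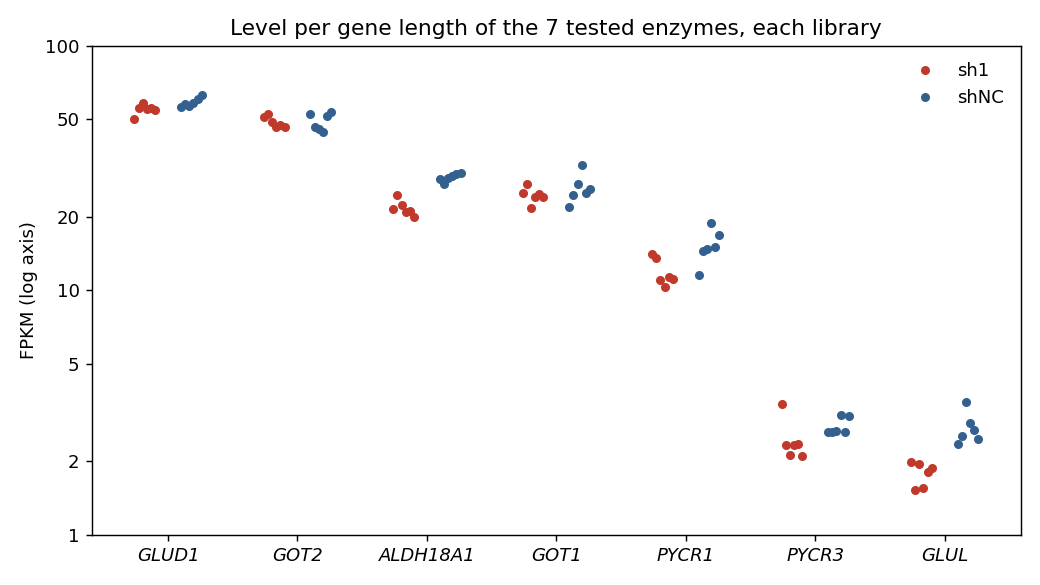
FPKM of the 7 tested enzymes on a log axis in each sh1 (red) and shNC (blue) library, in the order of their shNC means. Points are libraries. Mean levels run between 1.78 FPKM (GLUL) and 55.0 FPKM (GLUD1) in sh1 and between 2.73 FPKM (GLUL) and 58.6 FPKM (GLUD1) in shNC.

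Other genes of the same pathways were described by their counts, beside the 13.3% of all genes tested that were lower and the 12.8% that were higher. Of 20 further enzymes of glutamine, glutamate and proline, 11 were tested, of which 1 was higher and 2 lower, and these counts are near the shares over all genes. Their median log2 fold change was −0.00, which took the other sign under other scalings. OAT, which links ornithine to pyrroline-5-carboxylate, was at 97.3 CPM in sh1 and 120.5 CPM in shNC (log2 fold change −0.31, adjusted p = 0.00075). PSAT1, which uses glutamate in serine synthesis, had a log2 fold change of −0.21 (adjusted p = 0.0075). The alanine aminotransferase GPT was higher, at 0.902 CPM in sh1 and 0.296 CPM in shNC (log2 fold change 1.57, adjusted p = 0.00012), with at most 16 counts in any library. Of 10 glutamine amidotransferases, NADSYN1 was higher (log2 fold change 0.35) and 3 were lower, namely PPAT (−0.24), GFPT1 (−0.23) and GFPT2 (−0.19). Their median was −0.06. None of 8 genes listed for the malate-aspartate shuttle, in which GOT1 and GOT2 work, was called with all 12 libraries by edgeR after TMM or by DESeq2. The list also holds mitochondrial carriers of glutamate or dicarboxylates that are not part of the shuttle. Of the 8, 1 passed an unadjusted p under 0.05, and the median was −0.00, again of the other sign under other scalings. The gene past the unadjusted threshold was SLC25A13, the mitochondrial aspartate and glutamate carrier, at 90.1 CPM in sh1 and 83.5 CPM in shNC (adjusted p = 0.082). It was called with library totals (adjusted p = 0.032) and without shNC replicate 1 (adjusted p = 0.036).

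Among 16 carriers of the 3 amino acids, 12 were tested, 6 were lower and 1 was higher (13.3% and 12.8% of all genes), with a median of −0.17. The glutamine carrier SLC38A1 was at 258 CPM in sh1 and 335 CPM in shNC (log2 fold change −0.38, adjusted p = 1.66e-05), and SLC1A4 had a log2 fold change of −0.42. SLC1A3, a glutamate and aspartate carrier, was higher, at 73.8 CPM in sh1 and 44.7 CPM in shNC (log2 fold change 0.72, adjusted p = 3.97e-05). With limma on FPKM or without sh1 replicate 4 the count of carriers called was 3, and it was 4 without sh1 replicate 5 or shNC replicate 5, as against 7 with all libraries. Of 17 genes that use proline, free or within proteins, or recover it from peptides, 14 were tested, with a median of 0.15. Of these 5 were higher and 0 lower, where 12.8% and 13.3% of all genes were, and 0 were lower also at an unadjusted p under 0.05 and with DESeq2. The 5 were P3H2 (log2 fold change 0.55), P4HA2 (0.52), P4HA1 (0.44), P3H3 (0.37) and P3H1 (0.25), which are known as proline hydroxylases of collagen or their relatives. P4HA3 (0.31, adjusted p = 0.16), P3H4 (0.14, adjusted p = 0.10) and P4HB (0.03, adjusted p = 0.71), of the same families or complexes, did not pass the test. Nor did the tested genes outside these families. They were EPRS1 (0.06), PARS2 (0.16), PEPD (−0.06), PREP (−0.07), XPNPEP1 (0.04) and L3HYPDH (0.04), with adjusted p of 0.27 to 0.70.

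**Figure D3:**
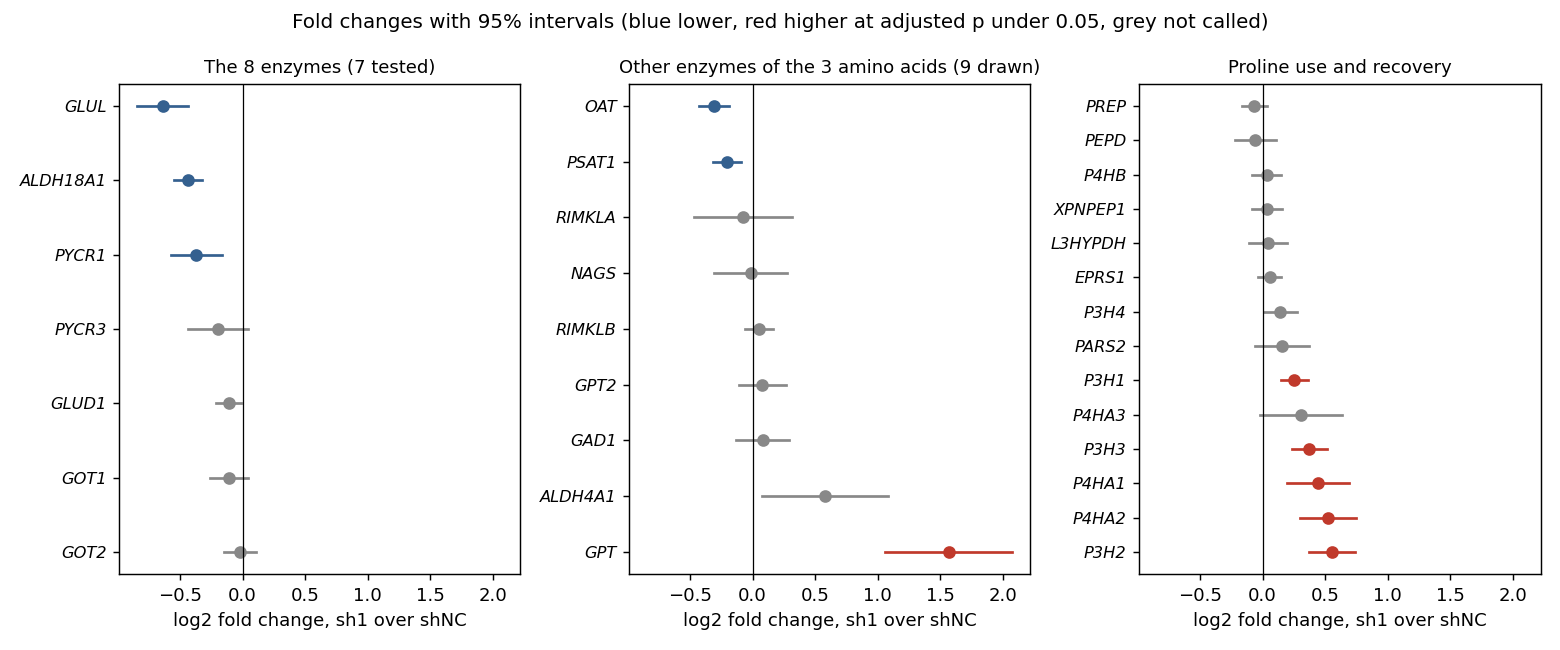
Log2 fold changes, sh1 over shNC, with 95% intervals for the 7 tested enzymes (left), 9 of the 11 tested other enzymes of the 3 amino acids (middle) and genes of proline use and recovery (right). Blue is lower, red higher at an adjusted p under 0.05 and grey not called. GLUL (−0.64), ALDH18A1 (−0.43) and PYCR1 (−0.37) lie left of 0, and the 5 called genes on the right lie between 0.25 and 0.55.

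ATF4 is a transcription factor of the amino acid response, and genes of proline and serine synthesis are among its known targets. ATF4 itself was at 377 ± 48.8 CPM in sh1 and 482 ± 48.3 CPM in shNC (SD, n = 6 each). The groups overlapped, and the log2 fold change was −0.35 (adjusted p = 0.0043). Of 15 ATF4 and ATF4-responsive genes, all tested, 6 were lower (13.3% of all genes), among them PHGDH (−0.34) and PSAT1, and 0 were higher at an adjusted or unadjusted p under 0.05, with a median of −0.20. PSAT1 stands in this list and in that of the further enzymes. With limma on log2(FPKM + 1) and log2(FPKM + 0.1) 3 were called, and 1 without a filter. Certain shNC libraries lay at the ends of their group both here and among the 7 enzymes. The replicate 1 library of shNC was the lowest of its group for GLUL, GOT1 and PYCR1 and for 12 of the 15 genes of the ATF4 list. Replicate 4 of shNC was the highest of its group for GOT1, PYCR1 and PYCR3 and for 8 of the 15. Other genes went differently. For GOT2, shNC replicate 1 was the highest and replicate 4 the lowest, and replicate 4 was the lowest for 2 of the 15. For GLUD1 and ALDH18A1 neither library was at an end. Whether ATF4 has a part in the levels of PYCR1 was not tested.

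The genes most like each of the called enzymes over the 12 libraries were found by the root mean square difference of standardised log2 levels, among 10257 genes. GSTO1 (0.219) and LDLRAD3 (0.226) were nearest to ALDH18A1. LIMCH1 (0.310) and CHROMR (0.338) were nearest to GLUL. The neutral amino acid and glutamine carrier SLC1A5 (0.245) and ATG101 (0.263) were nearest to PYCR1. The median distance of all genes was 1.34 for ALDH18A1, 1.37 for GLUL and 1.36 for PYCR1. All these genes share the libraries and the difference between the groups, so the distances are a description only.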

How the data were processed

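The authors aligned the read pairs with HISAT2 to GRCh38 (release 87) and counted genes with featureCounts. Their versions were not given in the sources used here. The deposited tables hold gene counts, a signal scaled by the authors' size factors, which served only as an alternative scaling, and the FPKM, which the authors computed from the counts. One length per gene, within 0.01 bp, relates FPKM and counts in all 40131 entries with a count. Of 59248 entries, 572 have no Ensembl identifier and took 0.468% to 1.23% of the counts. They stayed in library totals and went through the same filter and test as the other entries. An alternative fit left them out together with ribosomal RNA genes. Of the 58676 Ensembl entries, 58207 matched GENCODE 44, from which coordinates come.

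For testing, edgeR 4.0.16 (R 4.3.3) was run on the deposited counts of all 12 libraries (TMM, filterByExpr and the functions glmQLFit and glmQLFTest), grouped by the hairpin in the labels, with Benjamini-Hochberg adjustment over 16489 genes and a threshold of 0.05. Standard errors are the log2 fold change over the square root of F. The test was checked on simulated data. The lowest total was 11239638 counts, and p-values cover the spread between libraries, counting error included. Enzymes and lists were chosen with earlier results of these data known. Named were the 8 enzymes, RUNX2, up to 3 called members of each list with the smallest p, the 2 genes most like each of the 3 enzymes with the smallest p, and overlapping or copied genes. ALDH4A1, SLC25A13, GFPT2, P4HA1, P4HA2, P4HA3, P4HB, P3H4, EPRS1, PARS2, PEPD, PREP, XPNPEP1 and L3HYPDH were named after their values were seen. So were the markers other than CSF1R, GFAP, KRT8, RUNX2, SPARC and COL1A1. The labels give no batch.

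Alternatives were other scalings and filters, DESeq2 1.42.0, limma 3.58.1 on FPKM (filter 0.5 FPKM), the replicate number as a block and leaving out each library. Motifs were read in RefSeq windows outside chromosome 8. The metabolome was not analysed here, and some genes of the lists are counted but not reported by name.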

Additional observations from a re-analysis of the deposited data

Results flagged for a closer look

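PYCR3 in sh1 replicate 1 stood apart from the other libraries of its group, at 11.1 CPM against 6.76 to 7.59 CPM in the other 5, a gap of 0.808 of the range of the group. Among the 14 groups of enzyme values examined this was the only such library, and chance alone would give about 0.7. The same library was the highest of its group for 3 of the 7 enzymes tested, PYCR3 included, and sh1 replicate 2 was the highest for another 3.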

How the results depend on the processing

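The fold changes of the 7 enzymes and RUNX2 and the counts of genes called were recomputed under 26 alternatives. The FPKM levels had 1, the canonical length, and ratios, the sum and distances between genes had none. GLUL (log2 fold change −0.67 to −0.42) and ALDH18A1 (−0.46 to −0.40) kept their call in all of them, and GLUD1 (−0.12 to −0.07) and GOT1 (−0.15 to −0.03) stayed uncalled. PYCR1 lost its call with the unfiltered limma fit on log2(FPKM + 1) (−0.33). PYCR3 ranged between −0.31 and −0.14 over the fits that leave out 1 library and was called without sh1 replicate 1. GOT2 ranged between −0.041 and 0.0092 over those fits and turned positive without sh1 replicate 4 (0.0015) or 6 (0.0031) and without shNC replicate 1 (0.0092), 5 (0.0061) or 6 (0.0010), always uncalled. The enzymes called lower numbered 2 to 4 and those called higher 0. SLC25A13, of the malate-aspartate shuttle, was called with library totals, with the 3 limma fits and without shNC replicate 1, so that 1 gene of that list was called (0 to 1 when 1 library was left out). Carriers called numbered 3 in the 3 limma fits and 3 to 6 when 1 library was left out. The ATF4 list had 3 called with limma on log2(FPKM + 1) and log2(FPKM + 0.1) and 1 without a filter. Of all genes, 146 were lower and 198 higher by at least 2-fold. These counts were 257 and 464 without a filter on low counts, 76 and 105 where each library had to reach 10 counts, 27 and 17 with limma on log2(FPKM + 1), and 25 and 15 with limma without a filter, which also called 1375 genes lower in all, against 2194. DESeq2 called 198 genes lower and 325 higher by at least 2-fold. The limma fold changes are on the log2(value + pseudocount) scale, which understates changes of low genes. The causes of these shifts were not tested.

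The replicate numbers of sh1 and shNC are shared in the labels but did not pair the libraries, since the correlation of the deviations of same-numbered libraries was −0.16 to 0.03 and no sh1 library correlated best with its own number. With the replicate number as a block, 3 enzymes were lower and 0 higher, and of all genes 1701 were lower and 1680 higher. PRODH, with 0 or 1 count per library, could not be tested. PYCR3 and GLUL had the lowest counts of the tested enzymes. With every library thinned to the lowest total, edgeR still called GLUL (log2 fold change −0.60, adjusted p = 0.000123). PYCR3 stayed uncalled there (log2 fold change −0.18, adjusted p = 0.31).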
